A study of Mus musculus with 2 samples.

Results

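Dlx1 to Dlx6, Msx1 and Msx2 are 8 homeobox transcription factor genes, and their CG methylation was described here in WT osteoblasts and in osteoblasts that lack the TET proteins. They were chosen by gene symbol, 8 of the 21938 protein-coding genes annotated in GENCODE M21 on the mouse genome GRCm38. The Dlx genes lie as facing neighbours in 3 pairs, so the 8 genes fall into 5 loci, each taken as the gene or gene pair with 50 kb on each side. The Dlx1/Dlx2 locus was built from Dlx1 (ENSMUSG00000041911, chr2:71528113-71533981, plus strand) and Dlx2 (ENSMUSG00000023391, chr2:71543408-71546754, minus strand). The Dlx3/Dlx4 locus holds Dlx3 (ENSMUSG00000001510, chr11:95120119-95125296, plus strand) and Dlx4 (ENSMUSG00000020871, chr11:95140447-95146263, minus strand). The Dlx5/Dlx6 locus holds Dlx6 (ENSMUSG00000029754, chr6:6863334-6868568, plus strand) and Dlx5 (ENSMUSG00000029755, chr6:6877805-6882085, minus strand). Msx1 (ENSMUSG00000048450, chr5:37820485-37824583) and Msx2 (ENSMUSG00000021469, chr13:53466884-53473074) are both on the minus strand.

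The cells were primary osteoblasts of C57BL/6 mice at 3 days of age, cultured for 3 days, and the methods of the study place their source in the parietal bone of the calvaria. The WT library came from wild-type mice and the TCKO library from mice with Prx1-Cre and the alleles Tet1fl/fl, Tet2fl/fl and also Tet3fl/fl, in which Cre removes the floxed stretches of all 3 genes. Whole genome bisulfite sequencing (WGBS), in which 5mC and 5hmC are both read as methylated, was done with 1 library per genotype. Each test below therefore compares 2 libraries and not 2 genotypes, and the differences have no replicate check. Prx1-Cre acts in limb and some craniofacial mesenchyme, so cells of a calvarial culture in which it was not active keep their Tet genes, and whether the DNA came from pooled animals is not given in the sources used here. In a bulk library, a level between the extremes does not tell partly methylated cells from a mixture of methylated and unmethylated ones.

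Dlx and Msx proteins bind DNA through a homeodomain that recognises sequences with a TAAT core, and in many tissues Dlx proteins act as activators and Msx proteins as repressors on overlapping sites. Dlx5 and Dlx6 are needed for jaw patterning and skeletal development, and Dlx5 and Dlx3 act on osteoblast genes downstream of BMP signals. Dlx1 and Dlx2 are best known for forebrain interneurons and for the upper jaw, Dlx4 for the placenta and branchial arches, Msx1 for palate and teeth, and Msx2 for growth of the skull vault. TET enzymes oxidise 5mC on the way to its removal, and CpG-rich start sites of such developmental genes are usually free of methylation, as are many active enhancers.

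The following stretches carry the main results, printed from GRCm38 with every CpG in capitals. They are at least 1 of the 200 bp bins of each locus that gained methylation in TCKO, the only such bin inside a start-site domain, and, for contrast, a low stretch beside Msx2 and the promoter of Msx1, where it stayed low. Sequences are on the plus strand unless said otherwise.
Dlx6 distal bin, chr6:6830201-6830400, intron of Dlx6os1: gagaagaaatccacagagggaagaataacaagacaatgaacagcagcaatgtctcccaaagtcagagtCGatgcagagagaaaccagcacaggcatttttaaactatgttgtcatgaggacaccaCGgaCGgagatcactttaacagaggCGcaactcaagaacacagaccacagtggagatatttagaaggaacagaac
Dlx5 distal bin, chr6:6909601-6909800, intergenic: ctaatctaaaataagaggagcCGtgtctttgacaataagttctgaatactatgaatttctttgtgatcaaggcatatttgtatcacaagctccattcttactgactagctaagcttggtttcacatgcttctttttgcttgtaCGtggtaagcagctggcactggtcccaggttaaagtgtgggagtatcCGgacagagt
Dlx5 distal bin, chr6:6909801-6910000, intergenic: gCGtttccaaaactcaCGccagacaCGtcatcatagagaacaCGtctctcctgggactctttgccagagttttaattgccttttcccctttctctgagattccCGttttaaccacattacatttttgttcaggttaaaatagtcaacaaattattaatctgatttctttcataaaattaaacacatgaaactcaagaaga
Dlx5 domain bin, chr6:6879601-6879800, coding exon 2 and the intron before it: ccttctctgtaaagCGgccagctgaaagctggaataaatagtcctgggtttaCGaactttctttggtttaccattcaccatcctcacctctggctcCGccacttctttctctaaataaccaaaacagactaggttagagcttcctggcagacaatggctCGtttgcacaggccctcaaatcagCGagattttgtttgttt
Dlx1 upstream bin, chr2:71505201-71505400, intron of Metap1d: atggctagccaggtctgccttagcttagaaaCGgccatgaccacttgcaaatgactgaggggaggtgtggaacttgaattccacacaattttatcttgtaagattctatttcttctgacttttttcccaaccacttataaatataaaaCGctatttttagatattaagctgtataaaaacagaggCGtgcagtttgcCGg
Dlx3 upstream bin, chr11:95102601-95102800, intergenic: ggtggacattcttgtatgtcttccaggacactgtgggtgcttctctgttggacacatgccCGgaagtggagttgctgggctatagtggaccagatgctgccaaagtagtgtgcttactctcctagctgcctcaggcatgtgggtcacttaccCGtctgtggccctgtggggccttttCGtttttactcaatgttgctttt
Msx1 downstream bin, chr5:37804601-37804800, intergenic: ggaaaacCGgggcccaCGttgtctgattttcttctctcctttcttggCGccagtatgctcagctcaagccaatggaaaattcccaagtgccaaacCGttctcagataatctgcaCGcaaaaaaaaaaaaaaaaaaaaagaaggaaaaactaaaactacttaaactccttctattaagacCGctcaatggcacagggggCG
Msx2 upstream bin, chr13:53487001-53487200, intergenic: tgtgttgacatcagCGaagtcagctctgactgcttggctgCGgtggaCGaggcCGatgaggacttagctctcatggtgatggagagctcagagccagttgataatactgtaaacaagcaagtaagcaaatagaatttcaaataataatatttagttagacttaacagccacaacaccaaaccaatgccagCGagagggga
Msx2 downstream low bin, chr13:53462601-53462800, intergenic: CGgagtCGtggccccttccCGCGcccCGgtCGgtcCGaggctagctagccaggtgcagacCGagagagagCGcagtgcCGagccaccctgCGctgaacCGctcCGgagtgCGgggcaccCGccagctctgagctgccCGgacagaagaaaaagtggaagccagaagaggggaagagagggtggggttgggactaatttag
Msx1 promoter (RefSeq, GRCm38.p6), chr5:37824586-37824835, minus strand: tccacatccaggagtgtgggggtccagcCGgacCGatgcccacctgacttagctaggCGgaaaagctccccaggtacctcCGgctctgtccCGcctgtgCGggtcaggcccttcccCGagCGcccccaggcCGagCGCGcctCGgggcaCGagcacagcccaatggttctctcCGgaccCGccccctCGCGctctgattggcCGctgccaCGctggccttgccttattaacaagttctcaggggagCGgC
The 3 distal bins of the Dlx5/Dlx6 locus hold 4, 3 and 5 CpGs in 200 bp, whereas the Msx2 low bin holds 16 and the Msx1 promoter 20 in 250 bases. A CpG at the last base of the Dlx6 distal bin runs into the next bin, and its cytosine on the plus strand was counted in the bin.

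The WT library had 261127589 calls on 83.7% of the CG cytosines of the genome and the TCKO library 223645082 calls on 81.9%. The pooled level of the genome was 70.2% for WT and 76.3% for TCKO. The 5 loci were read less deeply than that, with 3.53 to 5.53 calls per CG cytosine in WT and 2.741 to 4.743 in TCKO. As a check of the labels, the 2 kb window of each Tet gene with the fewest TCKO calls per WT call had 589 and 55 calls for Tet1, 101 and 10 for Tet2, and 173 and 68 for Tet3 (WT and TCKO), windows picked for their low TCKO count. A ratio that low or lower was found in 0.0282%, 0.0294% and 0.352% of the 1154829 autosomal windows with at least 50 WT calls. These are shares of single windows, whereas each Tet window was the lowest of its gene. How often other genes hold such a window was not tested. Among the start-site windows of marker genes, the median level went from 26.5% in WT to 32.7% in TCKO for osteoblast markers (8 genes), from 72.6% to 80.3% for blood (5 genes), from 64.9% to 84.7% for endothelium (3 genes) and from 32.1% to 25.5% for skeletal muscle (3 genes). Compared within 200 bp bins, the direction for skeletal muscle turned, with a median difference of 5.11 points higher in TCKO. Expression of these markers was not analysed here, and the part of a different cell makeup in the differences below was not tested.

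All 5 loci had a higher pooled methylation level in TCKO, by 2.52 to 7.38 percentage points. In the Dlx3/Dlx4 locus the level was 57.7% in WT and 65.1% in TCKO, a rise of 7.38 points (95% interval 6.18 to 8.57). In the Dlx1/Dlx2 locus it was 59.3% and 64.3% (5.07 points, 4.06 to 6.07), and in the Dlx5/Dlx6 locus 59.5% and 64.6% (5.03 points, 3.95 to 6.12). The Msx1 locus had 57.1% and 62.0% (4.91 points, 3.61 to 6.22). The Msx2 locus had 62.3% and 64.8%, a rise of 2.52 points (1.31 to 3.72). Of all 21938 protein-coding gene loci built the same way, 89.5% were higher in TCKO, with a median of 5.94 points and quartiles of 3.89 and 7.55, so Msx2 alone lay outside the middle range of the genome. Compared within 200 bp bins, the Msx2 difference was 5.57 points. Intervals throughout cover counting error only.

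**Figure D1:**
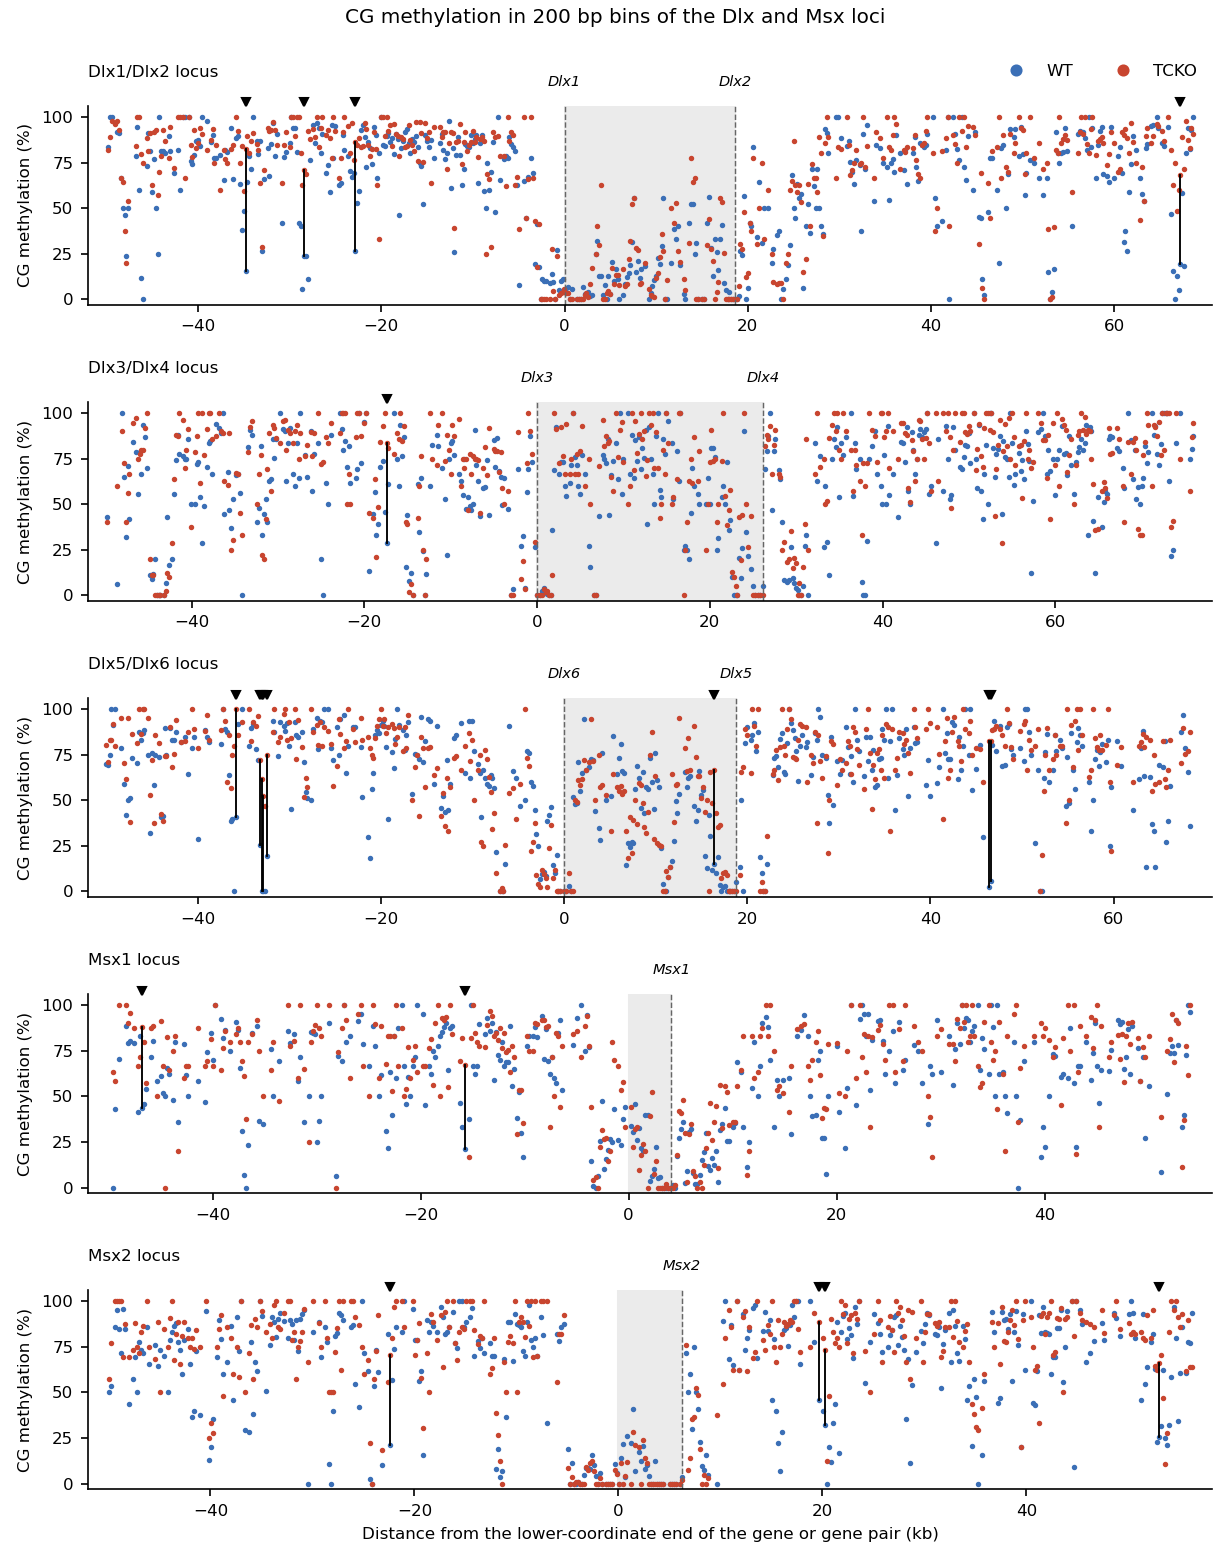
Each point is the CG methylation level (%) of a 200 bp bin with at least 4 calls in each library, WT in blue and TCKO in red, against the distance in kb from the end of the gene or gene pair with the lower coordinate. Grey bands mark the gene, or the gene pair with its spacer, and dashed lines their start sites. Triangles with black lines mark the 19 bins called as gaining 40 points or more, of which 18 lie outside the start-site domains. Bins read too thinly for that test carry no triangle.

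Within the loci, the flanks were higher in TCKO throughout, while the genes themselves stood apart from one another. In the Dlx1/Dlx2 pair, from the start of Dlx1 to that of Dlx2, the level was 15.3% in WT and 15.9% in TCKO, while the 50 kb flanks were higher in TCKO by 6.71 and 4.58 points. The Dlx1-Dlx2 spacer, which carries known forebrain enhancers, was low as well, at 16.8% and 18.5%. The Dlx6-Dlx5 spacer was intermediate, at 50.3% and 48.1%, and the Dlx3-Dlx4 spacer was methylated at 66.2% and 74.7%. The body of Dlx5 had 18.2% in WT and 38.2% in TCKO, a difference of 19.99 points, or 17.6 points when the libraries were compared within 200 bp bins, the largest of the 8 bodies. The body of Dlx4 had 21.7% and 33.9% (10.3 points within bins). The body of Msx1 had 20.97% and 15.2%, and that of Msx2 9.93% and 5.95%, differences that came to -1.14 and -1.31 points within bins.

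The start-site windows (1 kb on each side of the annotated transcription start site, TSS) were at 26.0% or less in WT for every member, and 6 of the 8 did not pass the test. Levels were compared by Fisher's exact test, 2-sided, on the calls pooled over each window, with p-values adjusted over the 21693 protein-coding genes with at least 20 calls in each library. Of these genes, 23.3% were called higher in TCKO and 2.31% lower at an adjusted p below 0.05, and of those at 30% or less in WT, 26.9% were called higher.

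For the skeletal pair, the Dlx5 window had 34 methylated of 398 calls in WT (8.54%) and 47 of 352 in TCKO (13.4%), a difference of 4.81 points (0.342 to 9.41) with an adjusted p of 0.130 in the exact test. The Dlx6 window had 5.26% of 266 calls and 0.893% of 112 (adjusted p = 0.136, exact test). The Dlx3 window, that of an osteoblast and tooth regulator, had 14.3% of 407 calls in WT and 15.3% of 347 in TCKO (interval of the difference -4.03 to 6.19 points). For the forebrain pair, Dlx1 had 7.41% and 4.09% (adjusted p = 0.0959, exact test) and Dlx2 19.3% and 19.95% (interval -4.82 to 6.17 points). Msx1 had 8.15% of 417 calls and 7.62% of 499 (interval -4.17 to 2.96 points). These 6 windows differed by less than 5 points each, and the intervals of Dlx2, Dlx3, Dlx6 and Msx1 hold 0.

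The remaining 2 windows were called, in opposite directions. The Dlx4 window had 42 methylated of 272 calls in WT (15.4%) and 49 of 97 in TCKO (50.5%), called higher with an adjusted p of 2.98e-09 (Fisher exact test). The Msx2 window had 61 of 235 (26.0%) and 36 of 386 (9.33%), called lower with an adjusted p of 1.50e-06 (Fisher exact test). In both, the libraries sampled different parts of the window. The 5 bins just downstream of the Dlx4 start, chr11:95145201-95146200, were free of methylation in both libraries, with 0 of 212 calls in WT and 0 of 45 in TCKO. Of these bins, 1 had 46 calls in WT and 0 in TCKO. The bin that holds the start, from chr11:95146201, had 1 of 20 methylated calls in WT and 0 of 4 in TCKO. The methylated bins just upstream of Dlx4 had similar levels in both libraries, such as 69.2% of 13 calls and 81.8% of 11 from chr11:95146401, and 78.9% of 19 and 88.2% of 17 from chr11:95146601. At Msx2, the 5 bins of chr13:53472001-53473000 were likewise free of methylation in both libraries, with 0 of 98 calls in WT and 0 of 241 in TCKO. Upstream of the Msx2 start, the bin from chr13:53473401 had 71.4% of 56 calls and 76.3% of 38, while the bins from chr13:53473601 (50% of 14, 7.69% of 13) and chr13:53473801 (60% of 15, 14.3% of 7) were lower in TCKO, as was the bin from chr13:53474201 outside the window (75% of 16, 36.4% of 11).

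With the exact test stratified by 200 bp bin, which compares the libraries only within bins, neither window was called: the difference was 1.58 points for Dlx4 (adjusted p = 0.932) and -3.04 points for Msx2 (adjusted p = 0.443). Under this test, 22.3% of the 21693 windows were called higher and 0.512% lower, and none of the 8 member windows was called. Dlx1 came closest, at -3.77 points (adjusted p = 0.0532, exact test), and Dlx5 differed by 2.09 points (adjusted p = 0.499, exact test). Dlx1, lower in TCKO, was also the only member at an unadjusted p below 0.05 (p = 0.0124, stratified exact test). The share of all windows at that limit is not given here. The stratified test was chosen after the values had been seen.

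**Figure D2:**
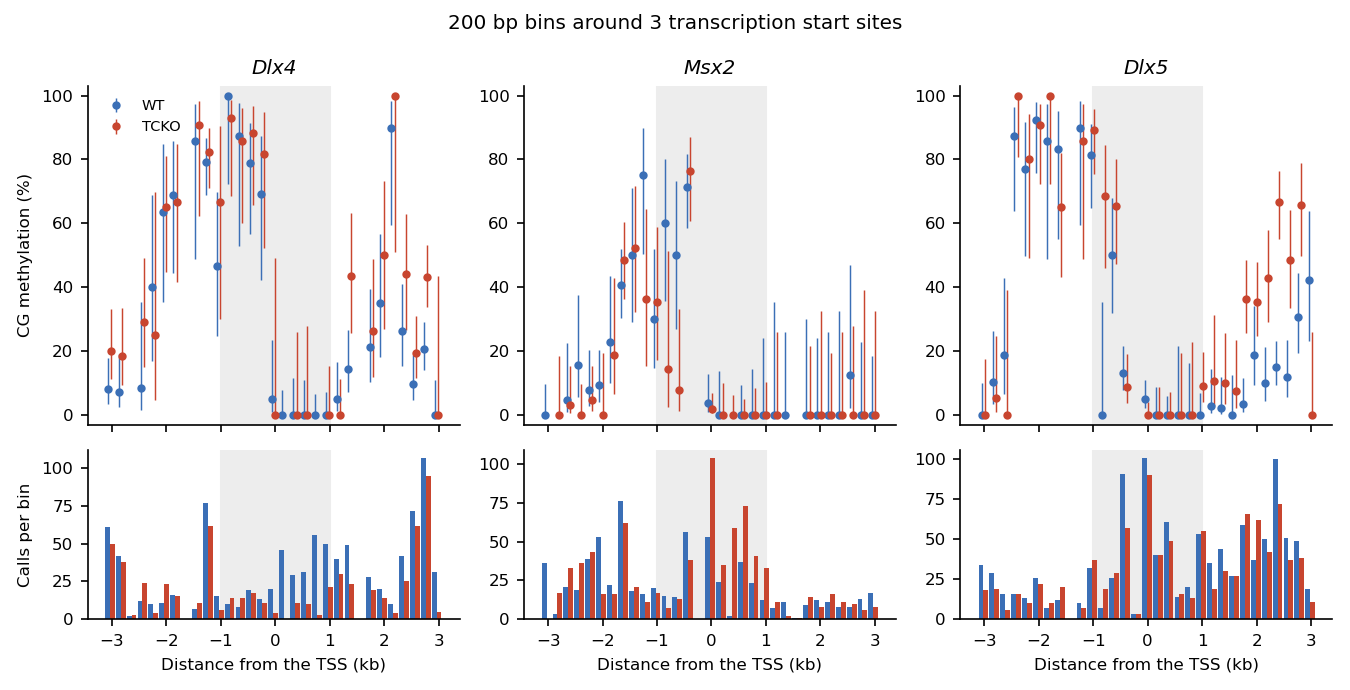
Upper panels, CG methylation (%) of 200 bp bins with at least 4 calls around the start sites of Dlx4, Msx2 and Dlx5, with 95% Wilson intervals; lower panels, calls per bin; x axes, distance from the start site in the direction of transcription (kb); WT in blue, TCKO in red, the 2 kb window in grey. Dlx4 and Msx2 have bins with many calls in 1 library and few in the other. In Dlx5 the bins centred 1784 to 2584 bp into the gene are higher in TCKO, with similar call numbers. The upstream Dlx5 bin from chr6:6882801 differs more, on 7 calls in WT and 19 in TCKO.

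The RefSeq promoters of Dlx1, Dlx2, Msx1 and Msx2 (250 bases before to 50 after the RefSeq start) held 27, 29, 29 and 22 CpGs, against a median of 7 over 32851 promoters. That of Dlx1, chr2:71529195-71529494, lies downstream of the GENCODE start and outside the start-site window used above. In WT 1 of the 96 calls in the Msx1 promoter was methylated and 0 of 89 in TCKO. The Msx2 promoter had 0 of 28 and 0 of 67 methylated calls, Dlx1 0 of 35 and 0 of 8, and Dlx2 0 of 13 and 0 of 50. The counts are small: 0 of 8 calls allows a level of up to 32.4% (Wilson interval), 0 of 67 up to 5.42%.

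To follow the edges of these unmethylated stretches, a TSS domain was found in each library alone, as the run of 200 bp bins at 20% or less around the start. In WT the domains spanned 1600 to 6400 bp, and together 25000 bp in WT and 23400 bp in TCKO. Dlx1 had the longest, at 6400 bp in WT and 6200 bp in TCKO, followed by Msx2 at 4800 and 5200 bp. Dlx5 went from 3600 to 2200 bp and Msx1 from 2800 to 2400 bp. Dlx2 (1800 and 1600 bp) and Dlx4 (1600 and 1400 bp) were shorter in TCKO by 1 bin, and Dlx3 (1800 and 2000 bp) and Dlx6 (2200 and 2400 bp) longer by 1 bin. So 5 of 8 member domains were shorter and 3 longer in TCKO. Of the 12691 protein-coding WT domains of at least 1 kb, 59.4% were shorter and 10.5% longer. The median member domain kept 90.3% of its WT length, against 88.9% over all.

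**Figure D3:**
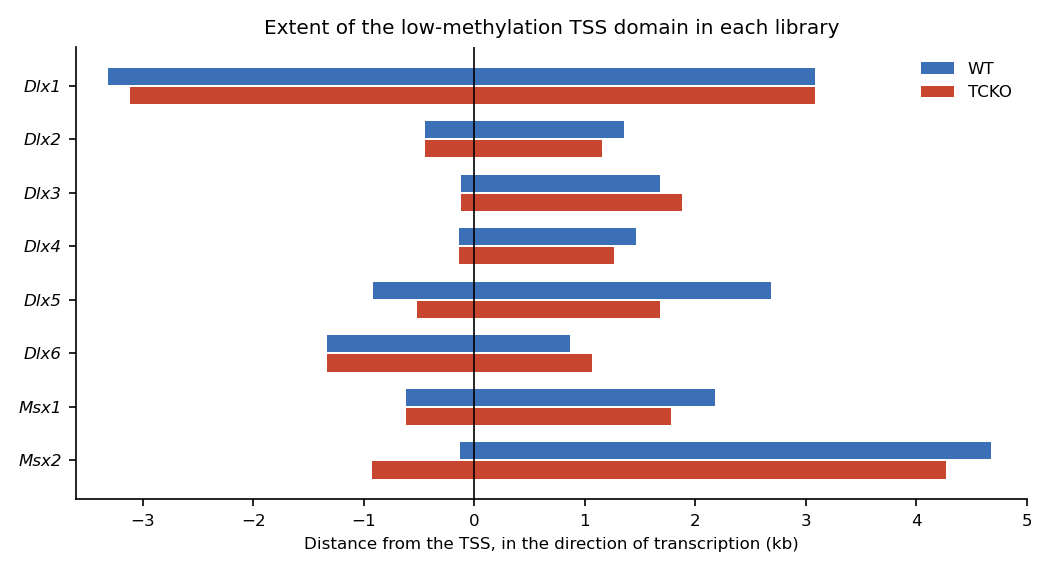
Bars span the low-methylation domain of each gene in WT (blue) and TCKO (red) along the distance from its start site in the direction of transcription (kb). Dlx5 loses length at both ends, from 3600 to 2200 bp, while the other 7 change by 800 bp or less at either end.

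With the domain rule used here, Dlx5 was the member with the largest change in its domain. Its WT domain, chr6:6879401-6883000, reaches from upstream of the start into the gene, past exon 2. It had 8.18% methylation in WT and 24.7% in TCKO, a rise of 16.5 points (12.8 to 20.2), or 15.6 points within bins. Since WT values set the limits of the domain, a rise in TCKO is favoured in every gene, and over all domains the median within-bin difference was 2.742 points, with 5.34% of domains at as large a gain as Dlx5 or a larger one. Dlx5 kept 61.1% of its WT length, and 9.41% of the 8228 WT domains of 1600 to 6400 bp kept as small a share or a smaller one. Both percentages are shares of single domains, whereas Dlx5 was picked as the most changed of 8 after the values had been seen.

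Among domain bins with at least 20 calls in each library, the largest differences lay in the 5 bins at the inner end. From the bin nearest the start site outwards, the levels in WT and TCKO were 3.39% of 59 calls and 36.4% of 66 (chr6:6880201-6880400), then 18.9% of 37 and 35.5% of 62, then 10% of 50 and 42.9% of 42. Next came the bin over exon 2, whose sequence is given above, with 15 of 100 calls methylated in WT (15%) and 48 of 72 in TCKO (66.7%; 51.7 points, 37.5 to 63.0; adjusted p = 8.42e-10, Fisher exact test). The outermost bin had 11.8% of 51 calls and 48.6% of 37. All 5 were higher in TCKO, and each is in the gene body. Closer to the start, the 4 bins centred 984 to 1584 bp into the gene were also higher in TCKO, with 0 to 2.86% in WT and 7.41% to 10.5% in TCKO, and the interval of the difference excludes 0 for the bin centred at 984 bp (0 of 53 and 5 of 55 calls). The 4 bins centred 184 to 784 bp downstream of the start had 0 methylated calls in both libraries. At the upstream edge, the bin from chr6:6882801 had 0 of 7 calls methylated in WT and 13 of 19 in TCKO. This was a larger rise, 68.4 points (26.5 to 84.6), on few calls.

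The other 7 domains differed less, and their levels within bins changed by -2.84 points (Dlx6) to 5.12 points (Dlx4). The Dlx1 domain had 6.23% in WT and 5.70% in TCKO over 1573 and 1298 calls, the Msx2 domain 5.49% and 5.36%, the Msx1 domain 7.34% and 8.42% and the Dlx3 domain 1.52% and 1.75%. The Dlx2 domain had 3.03% and 6.39% (interval of the difference -0.448 to 7.68 points) and the Dlx6 domain 4.68% and 4.65%. In Dlx4, 3.12% of 321 calls and 9.80% of 102 calls were methylated.

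Outside the domains, the flanks of the members were less methylated than those of all domains pooled, in both libraries. In the 500 bp beyond the WT edges, the 8 member domains had 42.0% methylation in WT and 44.2% in TCKO (interval of the difference -2.05 to 6.42 points), and all domains 56.6% and 65.3%. From 1 to 2 kb out, the member values were 33.1% and 33.9% and the values over all domains 72.5% and 79.2%. From 2 to 5 kb out, they were 38.2% and 43.8% for the members and 71.1% and 77.6% over all. Inside the edge, in the last 500 bp of the WT domain, the members had 8.38% in WT and 15.5% in TCKO, and all domains 4.88% and 11.6%. The calls of Dlx5 are part of the member values. Edges set in WT place bins high in WT just outside, and edges set in TCKO those high in TCKO. With edges set in TCKO, the members had 33.2% in WT and 44.25% in TCKO in the first 500 bp outside (11.07 points, 7.25 to 14.85). All domains had 46.7% and 59.0% there (12.3 points). In the last 500 bp inside those edges, the members had 11.7% and 9.84%, and all domains 3.64% and 4.81%.

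**Figure D4:**
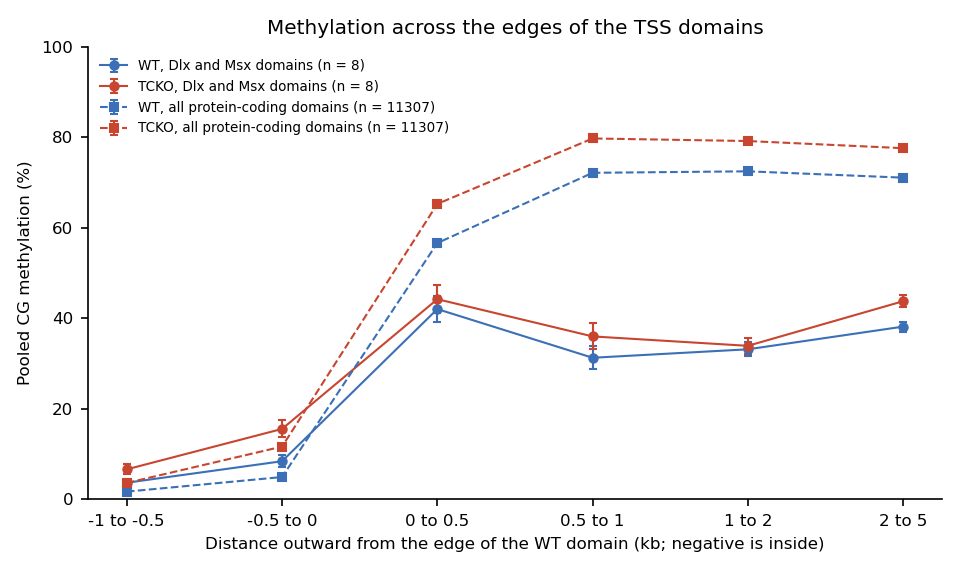
Pooled CG methylation (%) with 95% Wilson intervals against distance from the edge of the WT domain (kb, negative inside); circles and solid lines are the 8 Dlx and Msx domains, squares and dashed lines the 11307 distinct domains of all protein-coding genes; WT in blue, TCKO in red. Beyond 0.5 kb the member flanks stay between 31.3% and 43.8%, below the 71.1% to 79.8% of all domains.

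Bins of 200 bp that held 4 or more CG cytosines, read 4 times or more on average in each library, were then tested, 631 in the 5 loci. A bin was called gaining with a rise of 40 points or more and an adjusted p below 0.05 (Fisher exact test, adjusted over 2534629 bins). In the member loci 19 bins gained (3.01%) against 2.87% of all testable bins. The Dlx5/Dlx6 locus had 8 of 157, Dlx1/Dlx2 4 of 179, Msx2 4 of 115, Msx1 2 of 81 and Dlx3/Dlx4 1 of 99. Cytosines were counted on each strand, so a bin could pass with 2 CpGs. At 8 or more CG cytosines, a limit added after the values had been seen, 8 of 204 member bins gained (3.92%) against 3.24% of all, 4 of them in the Dlx5/Dlx6 locus and 0 in Dlx3/Dlx4. No member bin lost 40 points, against 0.0355% of all testable bins (a count of 0 at an unadjusted p below 0.05 as well). At an adjusted p below 0.05 with no limit on size, 39 of the 631 bins were higher in TCKO and 4 lower, against 6.6% and 0.177% of all testable bins. The lower ones were a pair in introns of Dlx6os1, chr6:6857201-6857400 (90.6% to 54.1%) and chr6:6871201-6871400 (69.1% to 37.2%), and a pair near Msx2, chr13:53449601-53449800 (91.7% to 63.9%) and chr13:53481201-53481400 (94.2% to 73.4%).

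The gaining bins with the smallest p-values lay far from the start sites of Dlx5 and Dlx6. The Dlx6 distal bin (chr6:6830201-6830400), 33033 bp upstream of the start of Dlx6 in an intron of the antisense transcript Dlx6os1, had 0 of 163 methylated calls in WT (95% Wilson interval up to 2.30%) and 83 of 135 in TCKO (61.5%; rise of 52.8 to 69.3 points; adjusted p = 7.77e-34, Fisher exact test). Each of its 5 CpGs had 0 methylated calls of 30 to 36 in WT and 50% to 75% in TCKO, so the rise was shared by every CpG of the bin. The next bin, from chr6:6830401, went from 0 of 36 to 21 of 40 calls (52.5%), the bin before, from chr6:6830001, from 25.4% to 72.3%, and the bin from chr6:6830801 from 19.5% to 74.6%. As a low stretch in WT, chr6:6830201-6831000 had 5.41% methylation in WT and 61.5% in TCKO, while the 2 kb on each side had 70.3% and 87.7%.

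On the other side, 27816 bp upstream of the start of Dlx5, the bin chr6:6909801-6910000 had 7 of 119 methylated calls in WT (5.88%) and 75 of 91 in TCKO (82.4%; rise of 76.5 points, 65.8 to 83.7; adjusted p = 2.09e-28, Fisher exact test). The bin next to it, chr6:6909601-6909800, had 1 of 46 (2.17%) and 28 of 34 (82.4%). This was the largest gain among the testable member bins, 80.2 points (61.9 to 89.7). Together these 400 bp rose to the level of their surroundings: 4.85% in WT and 82.4% in TCKO, with 78.6% and 84.4% in the 2 kb on each side.

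In the other loci the gaining bins had 15.8% to 45.9% methylation in WT. Upstream of Dlx1, in introns of the neighbouring gene Metap1d, which encodes a mitochondrial methionine aminopeptidase, chr2:71505201-71505400 had 36 of 135 calls in WT (26.7%) and 94 of 109 in TCKO (86.2%; adjusted p = 1.61e-18, Fisher exact test). Also in Metap1d, chr2:71493201-71493400 went from 15.8% to 82.6% and chr2:71499601-71499800 from 24.0% to 70.8%. Beyond Dlx2, chr2:71595201-71595400 went from 19.2% to 68.2%. The Dlx3 bin, chr11:95102601-95102800, went from 28.6% of 28 calls to 83.9% of 31. Downstream of Msx1, chr5:37804601-37804800 went from 21.2% of 66 calls to 67.2% of 58 and chr5:37773601-37773800 from 43.8% to 88.0%. The 4 bins of the Msx2 locus, chr13:53444401-53444600 in an intron of Gm2762, chr13:53486401-53486600, chr13:53487001-53487200 and chr13:53519801-53520000 in an intron of Gm34022, had 21.4%, 45.9%, 32.1% and 25.8% in WT and 70.8%, 88.6%, 73.3% and 66.3% in TCKO. The last 3 stood just inside the limit of 40 points, at 42.7, 41.3 and 40.5 points. Just outside it were chr5:37839401-37839600 near Msx1 (35.5 points) and 2 bins of the Dlx5 domain (33.0 and 32.9 points).

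Whether a low bin gained differed with its place. Of the 20 testable bins inside member TSS domains, 1 gained, the exon 2 bin of Dlx5, against 5.34% of such bins over all genes. Of the 40 testable bins at 20% or less in WT outside any TSS domain, 7 gained (17.5%), against 45.3% of such bins in the genome. None of the 31 bins at 20% or less in TCKO outside the domains had lost 40 points, against 1.42% in the genome. All 7 gaining low bins lay more than 10 kb from a member start, where 7 of 14 gained, against 47.8% over the genome at more than 10 kb from a protein-coding start. Within 10 kb, 0 of 26 gained, against 31.1% over the genome, and the highest rise was 17.0 points. The bins from chr13:53462601 and chr13:53462801, just over 10 kb from the Msx2 start, did not gain. They belong to a stretch that is centred within 10 kb and is counted as near below. The limit of 10 kb was chosen after the values had been seen, and neighbouring bins share low stretches, so these shares are descriptions.

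**Figure D5:**
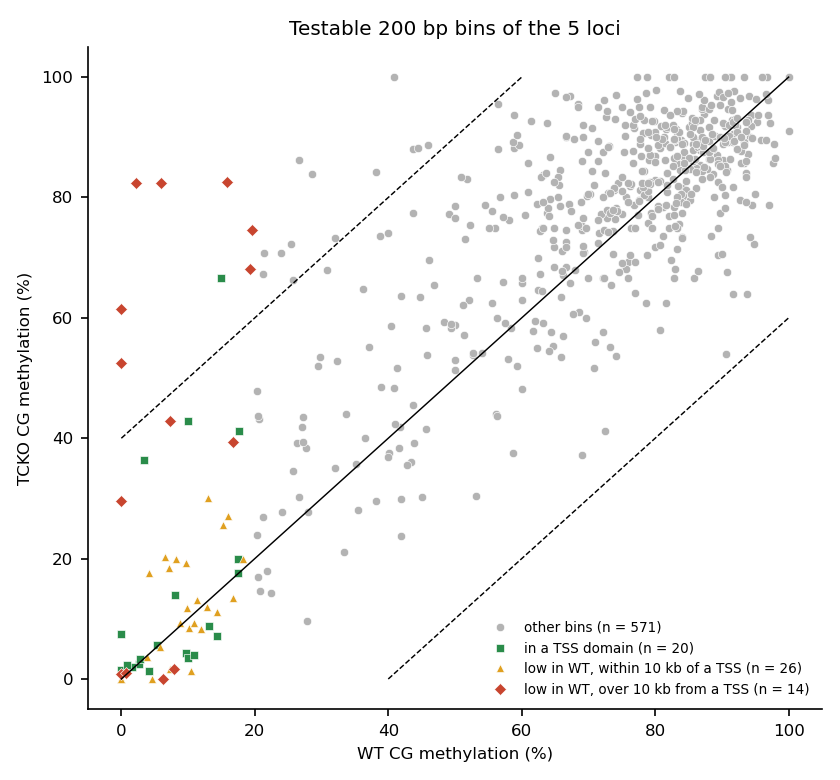
TCKO against WT CG methylation (%) of the 631 testable bins; the solid line marks equal levels and the dashed lines 40 points more or less. Of the bins low in WT outside the domains, those within 10 kb of a start (triangles) all stay at 30% or less in TCKO, while those farther away (diamonds) reach 82.6%.

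Joined by the same rule as the TSS domains, these low bins formed 20 stretches outside the domains, 11 of them centred within 10 kb of a member start. The near ones had levels of 1.59% to 15.3% in WT and 0 to 27.0% in TCKO, and their differences ran from -1.73 to 12.6 points with a median of 2.80. The longest of the 20, chr13:53461801-53467600, reaches from downstream of Msx2 into its last exon. Its 5800 bp had 65 of 1509 methylated calls in WT (4.31%) and 33 of 1279 in TCKO (2.58%). The Msx2 low bin printed above is part of it, with 0 of 150 calls in WT and 2 of 229 in TCKO (0.873%). In the Dlx1-Dlx2 pair, chr2:71531801-71535400 had 9.97% and 13.6% and chr2:71535801-71538600, in Dlx1as, 12.9% and 11.2%. Upstream of Dlx6, chr6:6860601-6861400 had 9.15% and 8.13%, and upstream of Dlx5, chr6:6884601-6885600 had 7.38% and 10.2%. The 3 largest near differences were 12.6 points in an intron of Dlx4 (chr11:95142601-95143800, 11.9% and 24.5%), 11.7 points downstream of Msx1 (chr5:37818001-37818400, 15.3% and 27.0%) and 10.8 points in Dlx4os (chr11:95148601-95151000, 6.15% and 16.9%).

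The 9 stretches farther away ranged from -6.25 to 77.6 points, with a median of 35.5, and 4 of them held gaining bins. Not all rose: chr11:95104801-95106000, 14719 bp upstream of Dlx3, had 15.3% of 222 calls in WT and 12.3% of 155 in TCKO. A CpG-dense stretch 34446 bp upstream of Dlx2, chr2:71580801-71581600, with 120 CG cytosines per kb, went from 10.3% to 20.9%. The gaining low bins had a median of 6 CG cytosines and the other low bins 8, with ranges of 4 to 14 and 4 to 32 that overlap.

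The gaining bins were searched on both strands for 3 short motifs. TAATTA, a homeodomain core, was in 1 of the 19 (7.24% of all testable bins), TGTGGTT, the core bound by RUNX proteins, in 2 (5.00% of all testable bins, 9% of all gaining bins), and TGANTCA, the AP-1 core, in 0 (5.80% and 13.0%). The TGTGGTT bins are the Dlx5 distal bin chr6:6909801-6910000 and chr2:71493201-71493400 in Metap1d. With 19 bins these counts are too few to compare with the shares.

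Antisense and neighbouring transcripts of the loci were described with the same windows. The start-site window of Dlx1as, antisense to Dlx1, had 13.7% in WT and 8.95% in TCKO, and that of Dlx6os1 51.7% and 41.6%. That of Dlx4os, which overlaps the unevenly read Dlx4 window, had 9.54% of 325 calls in WT and 19.3% of 135 in TCKO. Itga3, an integrin gene at the end of the Dlx3/Dlx4 locus, had 8.38% and 4.71%. These windows were compared on pooled calls only, not within bins.

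Among genes that act with the Dlx and Msx factors, BMP receptors and SMADs, osteoblast genes and other mesenchymal homeobox genes were counted from lists. Of 20 BMP pathway genes, 5 were higher and 1 lower in TCKO, with a median difference of 1.09 points, where 23.3% of all genes were called higher and 2.31% lower. The largest gain was at Bmpr1a, a BMP receptor (12.1% to 35.5%, adjusted p = 2.81e-13, Fisher exact test), and the only loss at Smad9 (29.97% to 21.3%). Compared within bins, the direction for Smad9 turned, to 5.985 points higher in TCKO, and it was not called (adjusted p = 0.0800, stratified exact test). Of the 10 osteoblast genes reported here, 4 were higher, with the largest gain at Ibsp, bone sialoprotein (45.6% to 84.6%, adjusted p = 3.38e-14, Fisher exact test). Of 21 other mesenchymal homeobox genes, 6 were higher and 0 lower (median 0.519 points), with the largest gain at Prrx2 (57.4% to 79.5%). The 8 members had a median difference of 0.0448 points, and the median over all genes was 3.00 points. With the test stratified by bin, the counts higher and lower were 5 and 0 for the BMP list, 4 and 0 for the homeobox list and 0 and 0 for the members, and 5 of the 10 osteoblast genes were higher, where 22.3% of all genes were called higher and 0.512% lower.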

How the data were processed

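WGBS libraries of WT and TCKO osteoblasts, 1 per genotype, were grouped by their labels. Per the submitters' processing notes and the methods of the study, reads were aligned with BSMAP 2.74 on GRCm38 and only unique hits were used. The deposited values are raw counts at each CG position, strands apart: C calls, and C plus T calls. Removal of duplicate reads is not given in the sources used here, and 5mC and 5hmC are not separated. Levels here are methylated over all calls, pooled over a region. Wilson intervals of shares and Newcombe intervals of differences (95%) cover counting error only. A TSS domain starts at the low bin nearest the TSS within 1 kb, counts bins with at least 4 calls and ends before 2 counted bins in a row above 20%. The stratified test is exact, over 200 bp bins with calls in both libraries, and gives a Mantel-Haenszel difference. The bin rule took the limits of 200 bp, 4 CG sites and 40 points from the study, whose test is not named. It counted sites on each strand, added the depth minimum, and joined no neighbouring bins. The code was tested on simulated data. The members and lists were chosen with earlier results of these data known. Named were the 8 members, genes that overlap called bins, the called list genes with the largest gain and loss, and in each locus the called bins, or the 4 with the largest gain and at least 20 calls in each library; Tet and marker genes, neighbouring transcripts, bins lower in TCKO, low stretches outside the domains and the other bins named were chosen after their values were seen. Another gene of the osteoblast list is not reported here, and since it was left out after the values were known, no lower count or median is given for that list. Promoters of 4 members were in the RefSeq table. Alternatives changed the averaging, flank, strand, deepest cytosines, window, call minimum, domain rule and bin rule, and others were added after seeing the data. RNA-seq, ATAC-seq and 5hmC-Seal data were not analysed here. Scripts ran in Python 3.11.15 with pandas 2.3.3, scipy 1.17.1, numpy 2.4.6, matplotlib 3.10.9 and numba 0.67.0.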

Additional observations from a re-analysis of the deposited data

How the results depend on the processing

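No paired analysis was possible because there is 1 library per genotype, and for the same reason no replicate could be left out. Of 35 alternative values of the locus differences, 20 moved by no more than the counting interval, 14 moved further and 1 changed sign. With flanks of 25 kb, Msx2 came to -0.646 points, Dlx1/Dlx2 to 3.90 and Dlx5/Dlx6 to 1.51, and with 100 kb Msx2 came to 5.15, Dlx1/Dlx2 to 6.21 and Msx1 to 6.92. The plus strand alone gave 3.40 (Dlx1/Dlx2), 6.76 (Dlx5/Dlx6) and 3.35 points (Msx1), and the minus strand 6.64, 3.12 and 6.44. The mean of cytosine levels gave 6.52 points for Msx1 and 6.00 for Msx2, and comparison within bins, added after seeing the data, 5.57 points for Msx2. Of the 8 TSS windows, 1 was higher as reported, 2 with 2 kb on each side (Dlx5 added, 14.5% to 25%), and 0 with cytosines of at least 4 calls in each library (7 windows tested) or, added later, with the test stratified by bin. Msx2 was called lower with 2 kb or 500 bp on each side and with at least 50 calls in each library, and not under the other settings. Apart from the stratified test, shares of all genes under these settings are not given here. Member domains shorter in TCKO numbered 5 as reported and 3 when low meant 30% or less, and 4 to 7 under the other rules. Shares of all domains under these other rules are not given here. Dlx5 was shorter under all 5 rules and kept 50% to 75%, but with low at 10% or less it went only from 2400 to 2200 bp. Other members also lost length under some rules. Dlx2 kept 53.3% with 3 counted bins in a row. With at least 10 calls a bin, Dlx4 kept 62.5% and Dlx1 68.75%, the same share as Dlx5 there. The remaining member values were 80% or more. Gaining bins numbered 19 as reported, 42 at 1 call or more per cytosine (2.79% of 1508, 2.58% of all) and 3 at 10 calls (2.26% of 133, 1.91% of all). They numbered 10 at a gain of 50 points (1.585% of 631, 1.547% of all) and, added later, 8 at 8 CG cytosines or more (3.92% of 204, 3.24% of all). Losing bins numbered 0 under the 3 alternatives set earlier (0.0366% to 0.0482% of all testable bins). At a loss of 30 points, added later, they numbered 2 (0.317% of 631, 0.0842% of all). At these depths a window of about 100 calls, such as Dlx4 in TCKO, does not resolve differences of a few points.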
